A study of Mus musculus with 20 samples.

Results

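The clustered protocadherins were taken as the protein-coding genes of the mouse *Pcdha*, *Pcdhb* and *Pcdhg* clusters on chromosome 18 (GRCm38), chosen by gene symbol and not by any measured value. There were 57 such genes among 35580 genes in the table, of which 14 lay in the alpha cluster, 22 in the beta cluster and 21 in the gamma cluster. RNA-seq was carried out on hippocampus and on cerebral cortex (neocortex) of C57BL/6J mice at 13.5 months of age, and each tissue was represented by 5 WT samples and by 5 samples of the miR-324-null line. The miR-324-null mice were male, like the WT mice, and carried a CRISPR/Cas9 deletion of the *Mir324* locus in every cell, so no comparison was limited to one cell type. The founders were of a mixed C57BL/6 and CBA/Ca background and were crossed back to C57BL/6J before heterozygotes were bred to give the WT and the null line. The labels do not say whether hippocampus and neocortex samples with the same number came from the same mouse, so the p-values below measure the spread between samples as labelled.

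Clustered protocadherins are adhesion proteins of the cadherin superfamily that sit in the neuronal membrane and bind the same protein on a neighbouring cell. Each alpha and gamma gene has its own promoter and its own first exon, which encodes the extracellular and membrane-spanning parts and is spliced to constant exons shared by the whole cluster, whereas beta genes have no constant exons. Single neurons express a different subset of the alternate genes, while the C-type genes (*Pcdhac1*, *Pcdhac2*, *Pcdhgc3*, *Pcdhgc4* and *Pcdhgc5*) follow other rules, and the resulting combinations help a neuron to tell its own branches from those of other cells.

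The samples held 12752439 to 19617765 estimated counts, of which the 57 genes made up between 0.0961% and 0.1158%. Hippocampal marker genes summed to 525 to 808 CPM (counts scaled to library size) in hippocampus and 233 to 414 CPM in neocortex, and neocortical marker genes to 236 to 339 CPM and 674 to 995 CPM, so the tissue labels held for every sample. *Mir324* was not measured here, so the deletion itself did not check the genotype labels. A few samples stood apart in markers of neighbouring tissue. *Ttr*, the transthyretin gene of the choroid plexus, stood at 4321 CPM in hippocampus WT 3, 3756 CPM in hippocampus miR-324-null 5 and 758.9 CPM in neocortex miR-324-null 2, against 10.1 to 110 CPM in the other samples. Summed striatal markers reached 164 to 453 CPM in neocortex WT and 273 to 772 CPM in neocortex miR-324-null, against 104.5 to 145 CPM in hippocampus.

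The exon structure decides how far reads can be assigned to one gene, so it is given before the levels. All 14 alpha genes, which span positions 36930184 to 37187661 of chromosome 18, shared exons at 37156155 to 37156213 (59 bases), 37159265 to 37159353 (89 bases) and 37184946 to 37187657 (2712 bases). All 21 gamma genes, which span 37661793 to 37841873, shared exons at 37825021 to 37825079 (59 bases) and 37833265 to 37833353 (89 bases), and a last exon that begins at 37839903 and ends at 37841873 in 17 of them (1971 bases). The beta genes lie between, from 37264938 to 37524479, and a median of 0% of their exon bases was shared with another clustered protocadherin. In the main transcript of each gene, meaning the protein-coding transcript with the highest estimated count, the median shared part was 53.5% of exon bases in the alternate alpha genes, 44.8% in the gamma A genes and 45.3% in the gamma B genes. The number of 31-base words found in no other gene's transcripts shows the same limit from the side of the sequence. A median of 36.5% of the words of an alternate alpha gene were its own, against 88.2% in a beta gene, 53.8% in a gamma A gene and 42.8% in a gamma B gene. *Pcdha4* stood lowest among the alternate alpha genes with 2.18%, and its level is therefore uncertain.

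**Figure D1:**
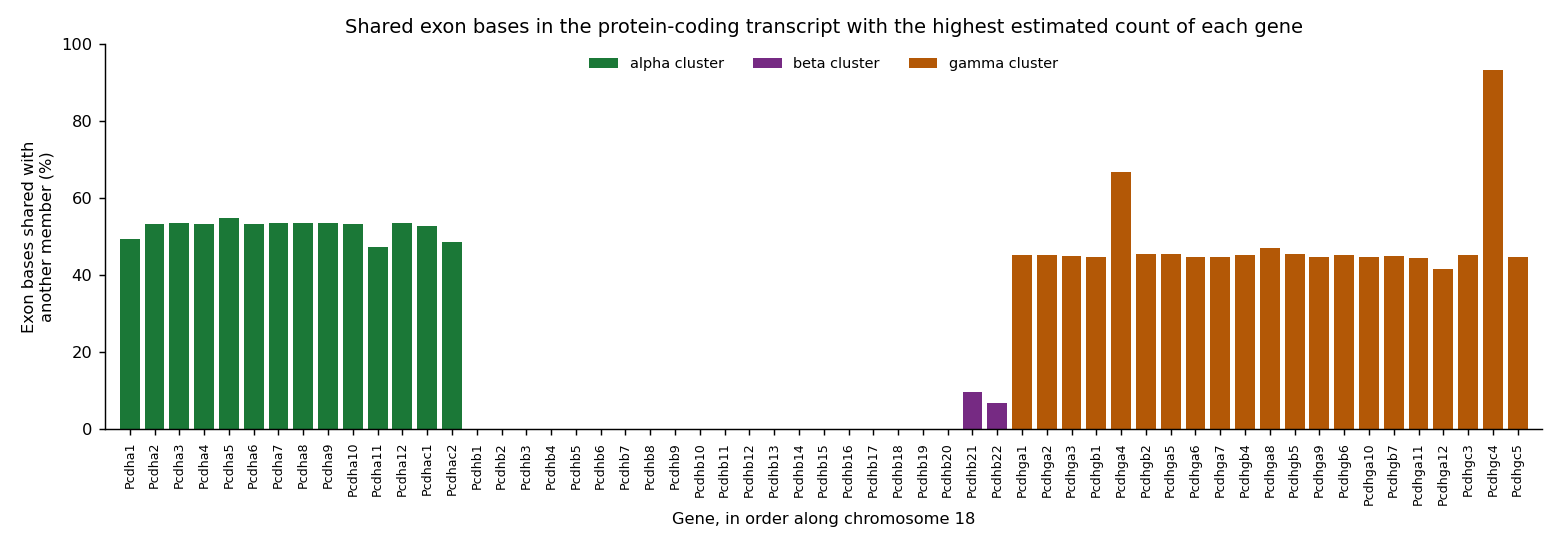
Share of the exon bases of each gene's main transcript that lie in exon bases of another clustered protocadherin (y axis, %), in gene order along chromosome 18 (x axis). Alpha and gamma bars stand at 41.7% or more, beta bars at 9.67% or less, and *Pcdhgc4* is highest at 93.3%.

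*Pcdhgc4*, a C-type gene known to be needed for the survival of certain neurons, looked at first to be the highest of all members, at a mean of 203 TPM (a level scaled for transcript length and library size) over the 20 samples. Nearly all of that level came from 1 short transcript of 2272 bases. This transcript has 2119 bases (93.3%) in shared gamma exons, 153 bases of its own exon, and 28 words of 31 bases that occur in no other transcript. It took a mean of 3816 estimated counts per sample, against 173 for the 5024-base transcript of the gene (3.84 TPM). Its part in the summed gamma counts ranged from 24.3% in neocortex miR-324-null 4 to 50.9% in hippocampus miR-324-null 1, with 48.9% in hippocampus miR-324-null 2. Reads from its shared exons cannot be told apart from constant-exon reads of the other gamma genes. Its 153 other bases set it apart from those genes, but not always from other *Pcdhgc4* transcripts. Of its 151 words found in no other gene, only the 28 given above occur in no other transcript. *Pcdhgc4* is therefore placed in the order of levels without this transcript, a choice made after seeing the data.

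On that basis 3 C-type genes led the order of levels in TPM. *Pcdhgc5*, which has been linked to inhibitory synapses, had a mean of 49.7 ± 9.71 TPM (SD, n = 20), *Pcdhgc3*, which binds the Wnt regulator Axin1, 32.3 ± 4.598 TPM and *Pcdhac2*, known for the spacing of serotonergic axons, 19.0 ± 3.98 TPM. Their ranges over all samples overlapped, at 31.6 to 68.9 TPM, 26.4 to 38.5 TPM and 10.7 to 26.8 TPM. Within a sample, *Pcdhgc5* was above *Pcdhgc3* in 19 of 20 samples and *Pcdhgc3* above *Pcdhac2* in 20 of 20. *Pcdhac1* was far lower at 2.24 TPM. *Pcdhgc4* stood at 4.14 TPM without its short transcript and at 203 TPM with it, so its place in the order depends on that choice. Among the alternate genes the median level was 6.13 TPM for gamma A, 3.46 TPM for gamma B, 2.53 TPM for alpha and 2.30 TPM for beta. Leaving out the short transcript did not return its reads to the other gamma genes. All gamma levels therefore depend on how the counting divided the shared-exon reads.

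Each subgroup had its own highest alternate genes. *Pcdha12* (5.54 TPM), *Pcdha4* (5.54 TPM) and *Pcdha5* (3.59 TPM) led the alpha alternates, and *Pcdhga11* (10.04 TPM), *Pcdhga3* (7.35 TPM) and *Pcdhga2* (7.03 TPM) the gamma A genes. *Pcdhgb6* (5.87 TPM), *Pcdhgb1* (4.18 TPM) and *Pcdhgb7* (3.83 TPM) were the highest gamma B genes. *Pcdhb9* stood apart in the beta cluster at 10.3 TPM, with a range of 8.36 to 12.2 TPM that did not reach the 6.27 TPM of the highest sample of *Pcdhb17*, the next beta gene (5.15 TPM), while *Pcdhb20* followed at 4.84 TPM. At the other end, *Pcdhb1* had 0 to 7 estimated counts and 3 or fewer in 16 of 20 samples, and it was the only member left untested by the filter on low counts. The other 56 members were tested in every comparison.

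Loss of miR-324 was not followed by a detectable change in any clustered protocadherin. Each gene was tested with edgeR's quasi-likelihood test on estimated counts summed per gene, and called differentially expressed (DE) at a Benjamini-Hochberg adjusted p of at most 0.05 over all genes tested. In hippocampus 0 of 56 members were DE, where 0.115% of all 14796 genes tested were (0.0676% higher and 0.0473% lower in miR-324-null), and 4 members had an unadjusted p under 0.05 (11.1% of all genes did). In neocortex 0 of 56 were DE, where 0.315% of 14930 genes were (0.161% higher and 0.154% lower), and 8 had an unadjusted p under 0.05 (12.2% of all genes did). DESeq2 on the same counts also called 0 members in either tissue, with 3 and 7 at an unadjusted p under 0.05. The groups overlapped for every member in both tissues, while 2.55% of all genes in hippocampus (1.37% higher and 1.18% lower) and 2.3% in neocortex (1.01% higher and 1.29% lower) had groups that did not. The median log2 fold change of the members, null over WT, was 0.01 in hippocampus and 0.08 in neocortex, against 0.00 for all genes tested in each tissue, and the median standard error of a member was 0.17 and 0.13 on the same scale.

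None of the largest differences between genotypes passed the test. In hippocampus *Pcdha4* had a log2 fold change of 0.35 ± 0.17 (SE) and *Pcdha1*, a low gene, -0.62, and neither was DE. *Pcdhb10* had the largest negative value of the beta cluster. Its level in hippocampus was 3.78, 4.58, 2.99, 3.78 and 4.09 CPM in the WT samples and 3.28, 2.68, 3.32, 2.01 and 2.90 CPM in the miR-324-null samples. Null samples were mostly lower but the groups overlapped, and the log2 fold change of -0.43 ± 0.17 had an adjusted p of 0.378 in edgeR. *Pcdhb11* (-0.42) and *Pcdhgb2* (-0.25), which were named after their values were seen, also had an unadjusted p under 0.05 in hippocampus. In the gamma cluster the values ran from -0.30 (*Pcdhga12*) to 0.19 (*Pcdhga7*).

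*Pcdhb14* was the fourth such gene in hippocampus and the only member with an unadjusted p under 0.05 in both tissues. Its level in hippocampus was 7.75, 10.1, 9.94, 8.66 and 9.16 CPM in the WT group, against 10.5, 9.18, 11.6, 12.3 and 11.1 CPM in the null group. In neocortex it was 8.57, 7.89, 10.7, 8.26 and 8.99 CPM in the WT group, against 10.8, 10.1, 10.6, 11.1 and 11.1 CPM in the null group. The null mean was higher in both tissues, but at least 1 sample of each group lay within the range of the other. The log2 fold changes were 0.27 ± 0.11 (adjusted p = 0.379, edgeR) and 0.28 ± 0.09 (adjusted p = 0.253, edgeR).

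In neocortex the members with the largest differences were *Pcdhb4* (0.54 ± 0.19) and *Pcdhac1* (0.38 ± 0.19) on the positive side and *Pcdha8* (-0.71 ± 0.37) on the negative side, none of them DE. *Pcdhga10* had the largest positive value of the gamma cluster, with 9.25, 11.4, 10.1, 10.3 and 10.4 CPM in the WT group against 10.3, 15.1, 12.2, 15.2 and 11.7 CPM in the null group (log2 fold change 0.34 ± 0.11, adjusted p = 0.255, edgeR). *Pcdhgc4* had the largest negative value of that cluster (-0.23 ± 0.08, adjusted p = 0.27, edgeR), and its short transcript had a mean of 255 ± 20.8 CPM in the WT group and 215 ± 29.2 CPM in the null group of neocortex (SD, n = 5), a difference that was not tested by itself, while its 5024-base transcript had 13.5 ± 2.95 and 13.3 ± 2.32 CPM. The remaining members with an unadjusted p under 0.05 in neocortex, named after their values were seen, were *Pcdhb15* (0.41), *Pcdhgb7* (0.31), *Pcdhga7* (0.28) and *Pcdhb19* (0.25). Of the 21 gamma genes 19 had a positive log2 fold change in neocortex and 11 in hippocampus. These genes share constant-exon reads and are not independent of one another. Striatal markers were also higher in neocortex miR-324-null samples, with a median log2 fold change of 1.05 and 0 of 8 DE, and their part in these differences was not tested.

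**Figure D2:**
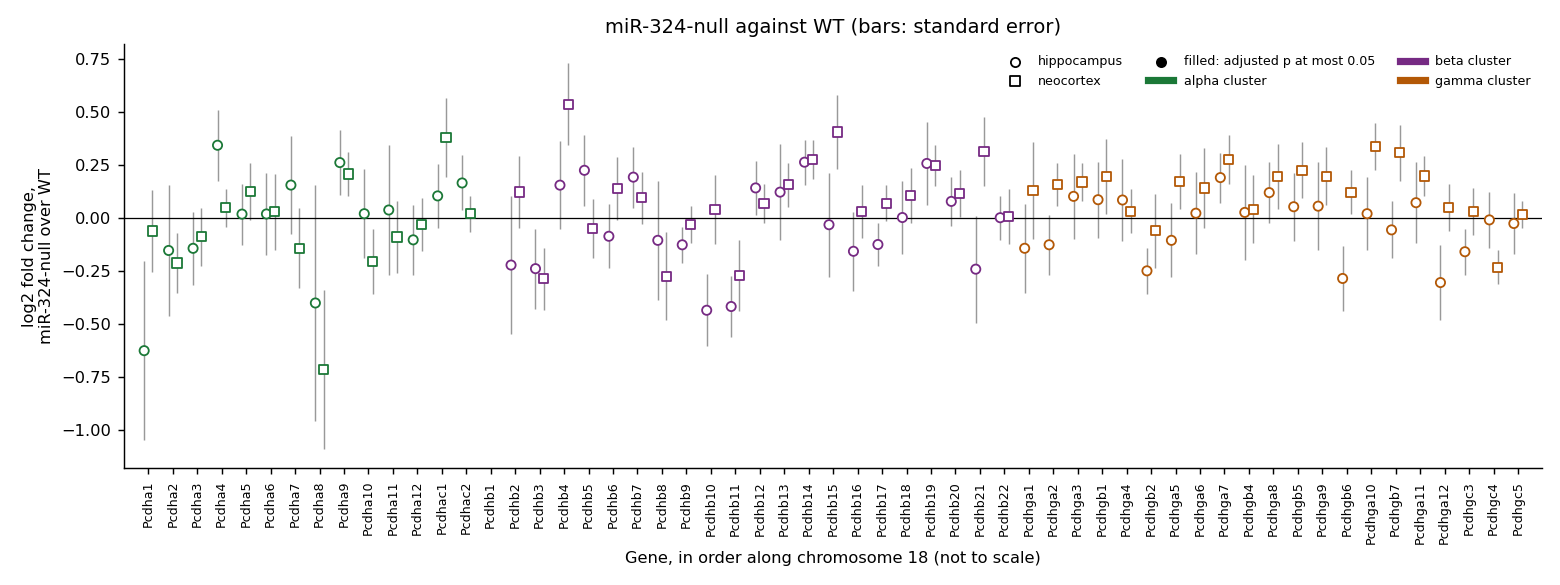
Log2 fold change of miR-324-null over WT (y axis, bars are the standard error) for each tested clustered protocadherin in gene order along chromosome 18 (x axis), in hippocampus (circles) and neocortex (squares). No marker is filled, since none of the 56 genes reached an adjusted p of 0.05 in either tissue.

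Most alpha genes had a lower level in hippocampus than in neocortex. The log2 fold change was negative for 13 of the 14 in WT mice, 11 in miR-324-null mice and 11 in both. For the 21 gamma genes these counts were 14, 18 and 14. Genes of either cluster share constant-exon reads and are not independent of one another. Between the tissues of WT mice 11 of 56 members (19.6%) were DE, below the 36.1% of all 14894 genes tested, and between those of miR-324-null mice 8 of 56 (14.3%), below the 27.4% of 15033 genes. An unadjusted p under 0.05 was found for 17 members in WT (44.1% of all genes) and for 16 in miR-324-null mice (38.5% of all genes). In WT mice 10 of the 11 were lower in hippocampus (18% of all genes were DE and lower), and in miR-324-null mice all 8 (13.6% of all genes were DE and lower, 13.8% DE and higher). By cluster, 6 of 14 alpha (42.9%), 1 of 21 beta and 4 of 21 gamma genes were DE in WT mice, and 4 (28.6%), 0 and 4 in miR-324-null mice. The alpha shares stood near the 36.1% and 27.4% of all genes. The median log2 fold change of the alpha genes, hippocampus over neocortex, was -0.36 in WT and -0.38 in miR-324-null mice, against 0.00 and 0.01 for all genes tested. In bulk tissue, fewer cells of a type that expresses a gene and less RNA per cell cannot be told apart.

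**Figure D3:**
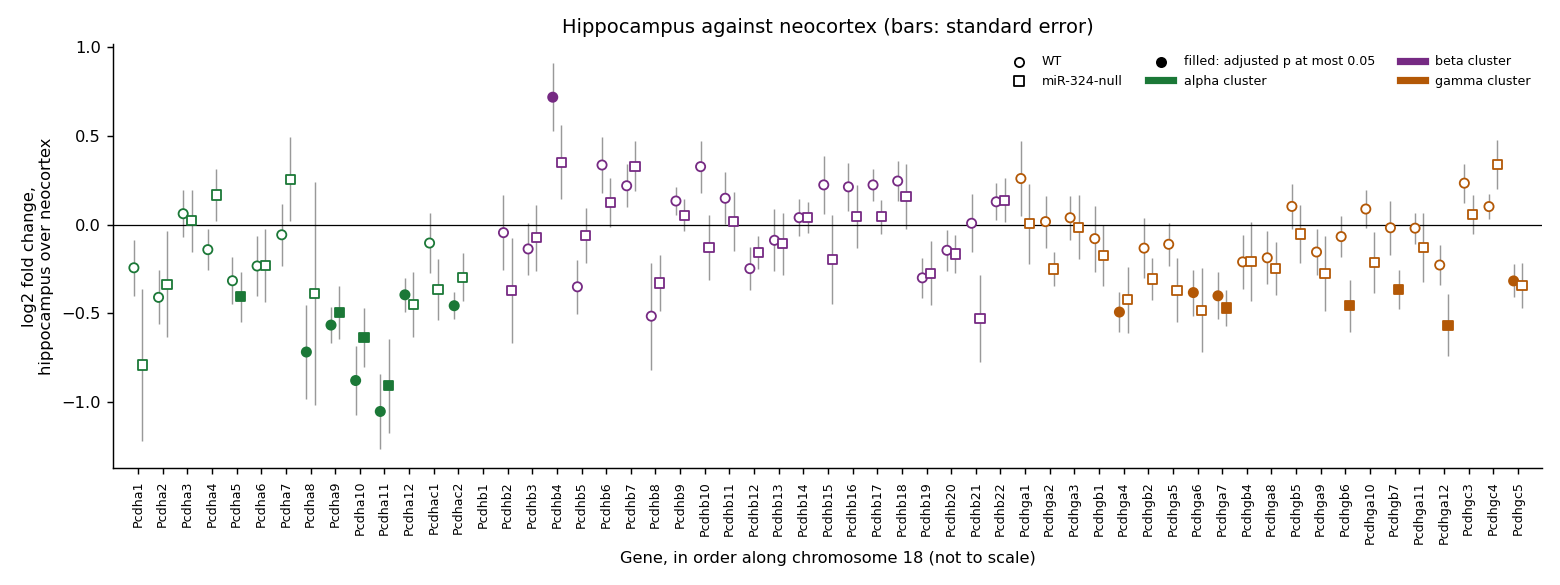
Log2 fold change of hippocampus over neocortex (y axis, bars are the standard error) for each tested clustered protocadherin in gene order along chromosome 18 (x axis), in WT (circles) and miR-324-null mice (squares). Filled markers have an adjusted p of at most 0.05. Of the 14 alpha genes 11 lie below 0 in both genotypes, among them the neighbours from *Pcdha8* to *Pcdha12*.

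*Pcdha9*, *Pcdha10* and *Pcdha11*, neighbouring alternate alpha genes, were DE and lower in hippocampus in both genotypes, in comparisons that share no samples. *Pcdha11* differed most. Its level was 3.12, 4.003, 5.59, 7.004 and 3.18 CPM in hippocampus and 7.55, 8.03, 10.2, 11.7 and 10.02 CPM in neocortex of WT mice, with no overlap (log2 fold change -1.06 ± 0.21, adjusted p = 0.00152, edgeR). In miR-324-null mice it was 1.95, 4.21, 4.86, 5.07 and 7.28 CPM in hippocampus and 8.50, 8.03, 6.83, 8.14 and 12.9 CPM in neocortex, where hippocampus 5 lay above neocortex 3 (-0.91 ± 0.27, adjusted p = 0.0227, edgeR). That call was lost without hippocampus miR-324-null 2 (adjusted p = 0.0538) or neocortex miR-324-null 5 (adjusted p = 0.0559), with edgeR in each case.

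*Pcdha10* had 8.92, 4.26, 4.29, 5.19 and 7.42 CPM in hippocampus and 12.9, 10.7, 8.69, 11.2 and 11.9 CPM in neocortex of WT mice, where only hippocampus 1 exceeded the lowest neocortex sample (-0.88 ± 0.20, adjusted p = 0.00306, edgeR). In miR-324-null mice it had 4.76, 7.19, 6.71, 6.19 and 5.66 CPM in hippocampus and 6.96, 7.48, 10.3, 11.1 and 11.9 CPM in neocortex (-0.64 ± 0.17, adjusted p = 0.0129, edgeR). Only hippocampus 2 exceeded the lowest neocortex sample there. The annotation gives this gene (ENSMUSG00000007440) the symbol *Pcdha11*, which it also gives to another gene, and it is called *Pcdha10* here because its coding start is that of RefSeq's *Pcdha10*. *Pcdha9* had 6.82 to 8.07 CPM in hippocampus and 9.19 to 12.7 CPM in neocortex of WT mice, with no overlap (-0.57 ± 0.10, adjusted p = 0.000684, edgeR), and 5.66 to 11.2 CPM against 11.05 to 14.7 CPM in miR-324-null mice (-0.50 ± 0.15, adjusted p = 0.0253, edgeR). The latter had an adjusted p of 0.0658 without neocortex miR-324-null 3 and of 0.0702 without the samples rich in *Ttr*, both in edgeR.

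The other DE alpha genes passed the test in one genotype. *Pcdhac2* had 55.9, 53.1, 58.9, 57.2 and 47.2 CPM in hippocampus and 85.1, 78.2, 75.7, 65.5 and 69.8 CPM in neocortex of WT mice, with no overlap (-0.46 ± 0.08, adjusted p = 0.000335, edgeR). In miR-324-null mice it had 39.6, 62.1, 68.4, 70.7 and 64.7 CPM against 67.3, 68.1, 74.0, 88.8 and 79.9 CPM, with overlap (-0.30 ± 0.14, adjusted p = 0.125, edgeR). *Pcdha12* was lower in hippocampus of WT mice (-0.40 ± 0.10, adjusted p = 0.00546, edgeR) and had a log2 fold change of -0.45 in miR-324-null mice, where it was not DE, and the WT call was lost in a single edgeR fit to all samples (adjusted p = 0.0583). *Pcdha8* (-0.72 in WT) was DE in 3 of the 10 fits that each left out 1 sample, and *Pcdha5* (-0.41 in miR-324-null) in 2 of 10, so both calls were lost when most single samples were left out. *Pcdha3* (0.06 in WT) and *Pcdha7* (0.26 in miR-324-null) had the largest positive values of the cluster and were not DE.

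**Figure D4:**
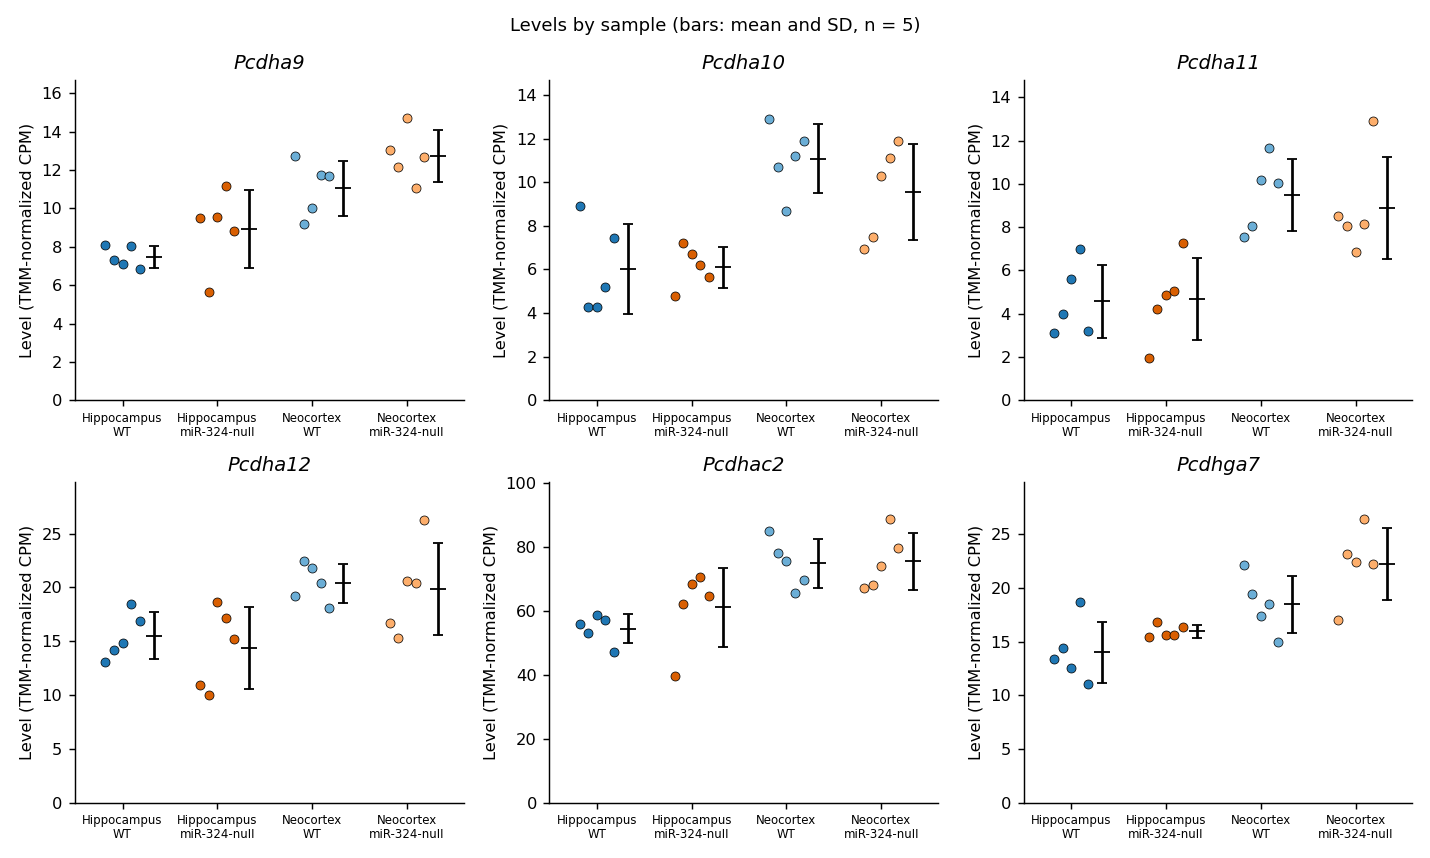
Level in CPM (y axis, from 0) of 6 DE clustered protocadherins in the 5 samples of each group (x axis, points in replicate order, with mean and SD). The neocortex groups have the higher mean in both genotypes in all 6 panels, and the tissues overlap in miR-324-null mice for each gene except *Pcdhga7*.

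In the gamma cluster *Pcdhga7* was the gene DE in both genotypes in the main fits. It had 13.3, 14.4, 12.5, 18.7 and 11.1 CPM in hippocampus and 22.2, 19.4, 17.4, 18.5 and 15.0 CPM in neocortex of WT mice, with overlap (-0.40 ± 0.13, adjusted p = 0.0301, edgeR). In miR-324-null mice it had 15.5, 16.8, 15.6, 15.6 and 16.4 CPM in hippocampus and 16.997, 23.2, 22.4, 26.4 and 22.2 CPM in neocortex, without overlap (-0.47 ± 0.10, adjusted p = 0.00361, edgeR). The WT call was kept in 4 of the 10 fits that each left out 1 sample, with adjusted p-values up to 0.085 without neocortex WT 1, and the miR-324-null call in 10 of 10. With an offset for transcript length the WT call had an adjusted p of 0.0561 in edgeR.

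*Pcdhga4* (-0.49 ± 0.11 in WT, adjusted p = 0.00333, edgeR) did not depend on any 1 sample. With an offset for transcript length its log2 fold change was -0.04 (adjusted p = 0.884, edgeR), and 66.8% of its main transcript lay in exons of other members. *Pcdhgc5* had 98.7, 117, 134, 124 and 94.1 CPM in hippocampus and 157, 143, 126, 135 and 148 CPM in neocortex of WT mice (-0.32 ± 0.09, adjusted p = 0.0164, edgeR), and a log2 fold change of -0.34 ± 0.13 in miR-324-null mice (adjusted p = 0.0635, edgeR). The WT call of *Pcdhgc5* was kept in 8 of 8 alternative fits. In miR-324-null mice 4 of 8 alternative fits called it, among them DESeq2 (adjusted p = 0.0319), as did 1 of the 10 fits that left out 1 sample. *Pcdhga12* (-0.57), *Pcdhgb6* (-0.46) and *Pcdhgb7* (-0.37) were DE in miR-324-null mice, each in 4 of the 10 fits that left out 1 sample. All 3 calls were lost without hippocampus 1, hippocampus 2, neocortex 2 or neocortex 5 of that genotype, and each of them without 2 further samples, with adjusted p-values of 0.0508 to 0.0761 in edgeR. The short *Pcdhgc4* transcript took its largest parts of the gamma counts in hippocampus 1 and 2, as given above, which was not tested as a part of these calls. *Pcdhga6* (-0.38, adjusted p = 0.0338, edgeR) was DE in WT mice and was named after its values were seen. Its call was not kept in edgeR with an offset for transcript length. *Pcdhga1* (0.26 in WT) and *Pcdhgc4* (0.34 in miR-324-null, 0.10 in WT) had the largest positive values and were not DE. The *Pcdhgc4* values are mostly those of the short transcript, and the 5024-base transcript had lower means in hippocampus, at 9.05 ± 1.31 against 13.5 ± 2.95 CPM in WT mice, where no samples overlapped, and 9.76 ± 1.57 against 13.3 ± 2.32 CPM in miR-324-null mice, with overlap (SD, n = 5, not tested).

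The beta cluster had 1 DE gene in the main fits. *Pcdhb4* was higher in hippocampus of WT mice, at 2.08, 3.23, 3.18, 3.86 and 3.41 CPM against 2.18, 1.88, 1.78, 2.26 and 1.44 CPM in neocortex, where hippocampus 1 alone lay within the neocortex range (0.72 ± 0.19, adjusted p = 0.00978, edgeR; 18.1% of all genes were DE and higher). In miR-324-null mice its log2 fold change was 0.35 ± 0.21 (adjusted p = 0.236, edgeR). *Pcdhb8* (-0.52 in WT) and *Pcdhb21* (-0.53 in miR-324-null) had the largest negative values and were not DE. Over 8 alternative fits the WT value of *Pcdhb8* ran from -0.54 to -0.20. It was DE in 1 of them, with replicate number as a block (adjusted p = 0.0194, edgeR). Of the 21 tested beta genes 8 had a negative log2 fold change in WT and 11 in miR-324-null mice.

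Groups did not overlap for 4 members in WT mice (*Pcdha9*, *Pcdha11*, *Pcdhac2* and *Pcdhga4*, all lower in hippocampus, where 13.3% of all genes had groups that did not overlap in that direction, 13.1% in the other and 26.5% in either), and for 2 in miR-324-null mice (*Pcdhga7* and *Pcdhgb6*, also lower, against 11% of all genes in that direction, 10.1% in the other and 21.1% in either). Without the samples with *Ttr* over 500 CPM, 9 members were DE and lower and 2 higher in WT mice, and 4 lower and 0 higher in miR-324-null mice. Summed striatal markers were lower in hippocampus, with 3 of 8 DE in WT and 8 of 8 in miR-324-null mice. Interneuron markers were also lower, with 5 of 6 DE in each genotype and summed levels of 576 to 800 CPM in hippocampus and 738 to 895 CPM in neocortex. Of the astrocyte markers, 4 of 5 were DE and higher and 1 lower in hippocampus of WT mice, and 1 higher and 1 lower in miR-324-null mice, with summed levels of 1270 to 1579 CPM in hippocampus and 852 to 1206 CPM in neocortex. The part of these cell types in the protocadherin differences was not tested. *Tph2*, *Slc6a4* and *Fev*, which mark the serotonergic neurons in which *Pcdhac2* is best known, summed to between 0.612 and 1.97 CPM in all samples, with *Slc6a4* and *Fev* under 0.5 CPM in every group mean.

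The genotype-by-tissue interaction, which tests whether the tissue difference depended on the genotype, was not DE for any member (0 of 56 in edgeR and in DESeq2, 0 members with an unadjusted p under 0.05 with either tool, where edgeR called 0.0195% of 15391 genes and 5.57% had an unadjusted p under 0.05). A call in only one genotype is thus not shown to differ between them.

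Summing a cluster removes the question of which member a constant-exon read belongs to. It does not settle reads shared with genes that are not members. The summed alpha level was 152, 139, 149, 157 and 144 CPM in hippocampus and 214, 193, 199.8, 189 and 182 CPM in neocortex of WT mice, without overlap (log2 ratio of means -0.40). In miR-324-null mice it was 129.8, 156, 172, 178 and 155 CPM in hippocampus and 178.5, 180.2, 192, 208 and 219.5 CPM in neocortex (-0.31), where the highest hippocampus sample (177.6 CPM) lay just under the lowest neocortex sample. A sum over chosen genes was given no test. The beta sums were close in all groups, with means of 148 ± 7.93, 146 ± 18.4, 144 ± 6.89 and 149 ± 5.54 CPM (SD, n = 5) in hippocampus WT, hippocampus miR-324-null, neocortex WT and neocortex miR-324-null.

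The gamma sums were 736 ± 25.9, 720.0 ± 24.3, 753 ± 55.9 and 744 ± 26.9 CPM in the same order of groups and overlapped throughout. Between genotypes the alpha sums also overlapped, with hippocampus means of 148 ± 6.94 CPM (WT) and 158 ± 18.5 CPM (null) and neocortex means of 195 ± 12.2 and 196 ± 17.8 CPM. Other same-strand genes of the gamma locus are not members, and *Pcdhgb8* was the highest of them (mean 42.78 estimated counts). With these genes added, the gamma means were 739 and 722 CPM in hippocampus (WT and null) and 756 and 747 CPM in neocortex. Without the short *Pcdhgc4* transcript the gamma sums were 457 ± 47.5 CPM in hippocampus and 498 ± 55.1 CPM in neocortex of WT mice, and 443 ± 87.6 and 529.6 ± 48.0 CPM in miR-324-null mice, with hippocampus miR-324-null 1 and 2 lowest at 344 and 352 CPM.

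**Figure D5:**
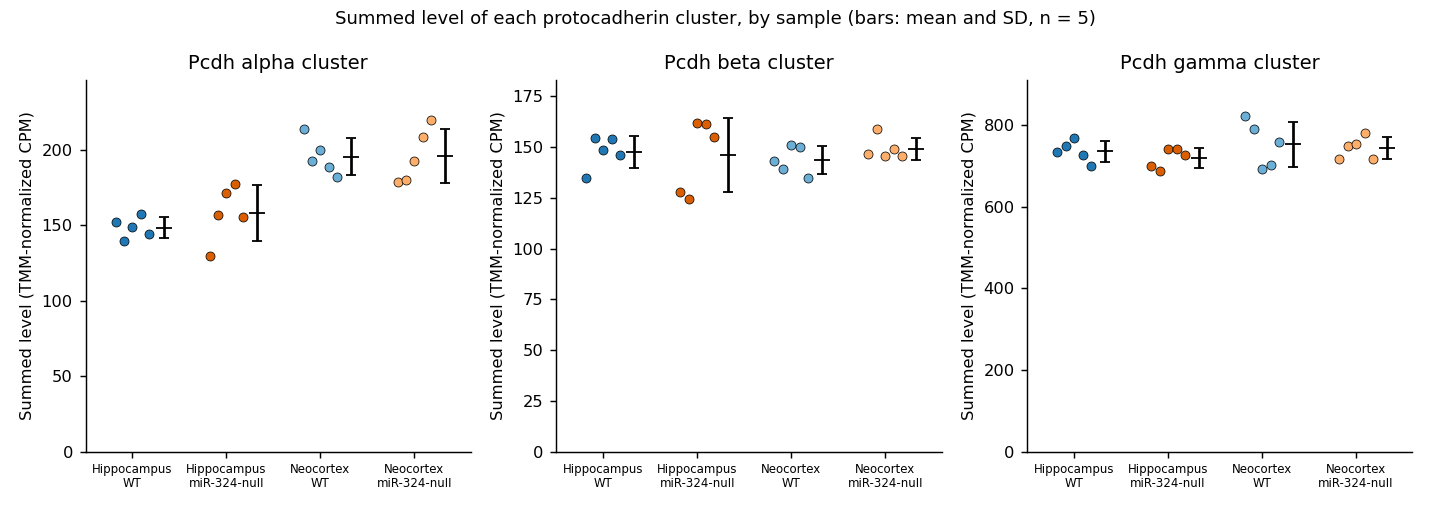
Summed level of the alpha, beta and gamma clusters in CPM (y axes, from 0) in the 5 samples of each group (x axis, points in replicate order, with mean and SD). Alpha sums are lower in hippocampus (129.8 to 177.6 CPM) than in neocortex (178.5 to 219.5 CPM), while beta and gamma sums overlap between the tissues.

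The make-up of the gamma cluster was compared as the share of each gene in the summed gamma TPM, without the short *Pcdhgc4* transcript. *Pcdhgc3* made up 23.3, 21.3, 20.6, 19.5 and 19.4% in hippocampus and 16.8, 15.8, 15.8, 16.2 and 18.6% in neocortex of WT mice. In miR-324-null mice it made up 21.9, 21.1, 19.2, 17.2 and 19.95% in hippocampus and 16.5, 16.95, 13.8, 15.9 and 15.3% in neocortex. On this basis its share was higher in every hippocampus sample than in any neocortex sample of the same genotype. The difference depended on leaving out the short transcript, a choice made after seeing the data. Over all transcripts the share of *Pcdhgc3* was 9.14 ± 1.13% in hippocampus and 7.999 ± 0.930% in neocortex of WT mice, and 8.56 ± 1.41% and 8.50 ± 1.33% in miR-324-null mice. *Pcdhgc5* had the reverse order of means, 25.9 ± 1.83% in hippocampus and 29.8 ± 1.39% in neocortex of WT mice and 26.2 ± 1.21% and 28.4 ± 0.724% in miR-324-null mice, with overlap in both genotypes. Shares were not tested, and as a level *Pcdhgc3* was not DE between the tissues (0.23 in WT, adjusted p = 0.119, and 0.06 in miR-324-null, adjusted p = 0.735, both edgeR). In the alpha cluster the share of *Pcdhac2* was similar across the groups, with means between 33.7% and 35.4%.

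Genes that act with the clusters were read from lists of 22 regulators, 19 partners and 20 protocadherins outside the clusters. Between genotypes 0 regulators and 0 partners were DE in edgeR in either tissue. The only gene of these lists that was DE was *Pcdh20*, a non-clustered protocadherin, in neocortex (14.5 ± 0.706 CPM in the WT group, 22.4 ± 4.08 CPM in the null group, log2 fold change 0.63 ± 0.11, adjusted p = 0.0438, edgeR). In the same comparison the hippocampal markers had a median log2 fold change of 0.47 (0 of 7 DE, summed levels of 233 to 306 CPM in WT and 257 to 414 CPM in null samples) and the striatal markers the 1.05 given above, and their part in the *Pcdh20* difference was not tested. Between the tissues 4 of 22 regulators were higher and 5 lower in hippocampus of WT mice (18.1% and 18% of all genes were), and 0 higher and 5 lower in miR-324-null mice (13.8% and 13.6% of all genes were). Those with the largest differences among the DE in both genotypes were the DNA methyltransferases *Dnmt1* (-0.44 in WT, -0.42 in miR-324-null) and *Dnmt3a* (-0.31 and -0.47) and the methylcytosine dioxygenase *Tet2* (-0.34 and -0.32), all lower in hippocampus.

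Of the 19 partners 8 were higher and 2 lower in hippocampus of WT mice, and 8 and 3 in miR-324-null mice, beside the same shares of all genes. The kinase gene *Ptk2b* (1.01 in WT and 0.90 in miR-324-null) and the WAVE complex genes *Wasf1* (0.78 and 0.73) and *Cyfip1* (0.65 and 0.58) had the largest differences among those DE in both genotypes. Among the non-clustered protocadherins *Pcdh20* was higher in hippocampus (2.88 in WT and 2.38 in miR-324-null), as was the atypical cadherin gene *Fat4* (1.53 and 1.04) and *Pcdh19* (1.49 and 1.29), whereas *Pcdh7* was lower (-1.45 and -1.26). Of their tested members, 8 of 19 were higher and 7 lower in hippocampus of WT mice, and 5 of 18 higher and 7 lower in miR-324-null mice (36.1% and 27.4% of all genes were DE in either direction).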

How the data were processed

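RNA-seq of 20 samples (4 groups of 5) was analysed from the deposited kallisto tables. The authors quantified reads of stranded mRNA libraries against the mouse GRCm38 transcriptome and deposited estimated counts and TPM per transcript. The labels name the build GRCh38, but the transcript identifiers are mouse. How strand was used is not given in the sources used here. Of 115270 transcripts 113580 matched GENCODE annotation by identifier, and the other 1690 (at most 0.556% of counts) were left out. Estimated counts were summed per gene and rounded. Each comparison was fitted with edgeR 4.0.16 (TMM, filterByExpr, quasi-likelihood test, Benjamini-Hochberg) on its own 10 samples, the interaction on 20. CPM are TMM-normalized over all samples. Standard errors were derived from the log2 fold change and its F statistic. DESeq2 1.42.0, other filters, size factors, a transcript-length offset, one fit of all samples, a replicate block and leaving out each sample were tried as alternatives, and the scripts were tested on simulated data. Leaving out samples with *Ttr* over 500 CPM or the short *Pcdhgc4* transcript was chosen after seeing the data. The members and lists were chosen with earlier results of these data known. Named were the C-type genes, the 3 genes highest in TPM of each subgroup, DE members (up to 8 in each direction) and the member with the largest positive and negative log2 fold change of each cluster in each comparison, and from the lists the genes DE between genotypes and the 3 largest differences, in either genotype, among those DE in both. Depth limits the low members, where 1 count is a large part of the level.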

Additional observations from a re-analysis of the deposited data

Results flagged for a closer look

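Across 38 quantities (the summed clusters and the named members, in CPM) in 4 groups of 5, 9 of 152 groups held a sample far from the other 4, by Dixon's test at the 95% level. Chance flags about 1 in 20 groups. *Pcdhac2* was low in hippocampus miR-324-null 1 (39.56 CPM against 62.06 to 70.74 CPM in the others) and *Pcdhb3* in hippocampus miR-324-null 2 (4.362 against 7.413 to 8.572 CPM). *Pcdhgc3* was low in hippocampus WT 5 (71.96 against 95.46 to 100.8 CPM) and *Pcdhb21* in neocortex miR-324-null 1 (2.051 against 2.971 to 3.133 CPM). In neocortex WT 1, *Pcdhb10* (3.74 against 2.814 to 3.036 CPM) and *Pcdha7* (8.227 against 6.382 to 6.909 CPM) were high. In neocortex miR-324-null mice *Pcdha11* was high in sample 5 (12.92 against 6.833 to 8.498 CPM), *Pcdhga1* in sample 4 (12.64 against 7.383 to 8.742 CPM) and the summed beta cluster in sample 2 (158.8 against 145.6 to 149.3 CPM). Sample 2 is also a sample with high *Ttr*, whose part was not tested.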

How the results depend on the processing

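No clustered protocadherin was DE between genotypes, or for the interaction, under any alternative. The count of all genes DE between genotypes moved, in hippocampus from 17 to 9 (at least 10 counts in every sample), 139 (DESeq2), 85 (DESeq2 with length offset) and 83 (a single fit to all samples), and in neocortex from 47 to 26, 240, 30 (edgeR with length offset) and 184 (DESeq2 with length offset). The interaction gave 3 genes, and 11 with DESeq2, 1 with the length offset and 1 without the *Ttr*-rich samples. Between tissues the members DE and lower in WT mice went from 10 to 6 with the length offset. Without the *Ttr*-rich samples 2 were higher in WT and 4 lower in miR-324-null mice, and 1 was higher in miR-324-null mice in the single fit to all samples. The gamma log2 ratio without the short *Pcdhgc4* transcript was 0.0897 (genotype, neocortex), -0.12 (tissue, WT) and -0.26 (tissue, miR-324-null), against -0.02, -0.03 and -0.05. Apart from samples or genes left out by construction, the cause was not tested.

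Leaving out each sample in turn gave 10 to 31 genes DE between genotypes in hippocampus, 27 to 566 in neocortex (566 without miR-324-null 5), 4799 to 5411 and 3444 to 4145 between tissues in WT and miR-324-null mice, and 1 to 20 for the interaction (20 without neocortex miR-324-null 5). Members DE ranged from 1 to 2 higher and 7 to 10 lower in WT, and from 0 to 1 higher and 3 to 9 lower in miR-324-null mice, with the fewest without hippocampus miR-324-null 2. The alpha log2 ratios ranged from 0.05 to 0.16 and -0.04 to 0.04 (genotype, hippocampus and neocortex) and from -0.42 to -0.36 and -0.35 to -0.24 (tissue, WT and miR-324-null). In the same order the beta ratios ranged from -0.05 to 0.04, 0.03 to 0.07, 0.02 to 0.07 and -0.07 to 0.02, and the gamma ratios from -0.05 to -0.02, -0.05 to 0.02, -0.06 to 0.00 and -0.06 to -0.03.

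Values near 0 changed sign. Between genotypes in hippocampus, *Pcdhgc4* was 0.0324 and *Pcdhgc5* 0.0002 without the *Ttr*-rich samples. With 1 sample left out, *Pcdhgc4* ranged from -0.1129 to 0.0651, above 0 without WT 1 or 5 or null 3, 4 or 5, and *Pcdhgc5* from -0.1291 to 0.0617, above 0 without WT 3 or 4 or null 1 or 2. In neocortex *Pcdhgc3* was -0.0277 without the *Ttr*-rich sample, null 2. With 1 sample left out, *Pcdhgc3* ranged from -0.0277 to 0.1055 (below 0 without WT 3 or 4 or null 2 or 4), *Pcdhgc5* from -0.0206 to 0.0542 (WT 3 or 4 or null 4) and *Pcdhac2* from -0.0437 to 0.0691 (WT 4 or 5 or null 4). Between tissues in WT, *Pcdha3* ranged from -0.0001 (without hippocampus 1) to 0.168 and *Pcdhac1* from -0.2344 to 0.0228 (without neocortex 1).

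Samples shared replicate numbers, but same-numbered samples were not shown to be paired, with correlations of deviations over genes from -0.172 to 0.177 and 1, 3, 1 and 1 of 5 pairs over 0.1. As a hint from the data, 5 (WT) and 7 (miR-324-null) of 10 samples correlated best with their own number between tissues. Between genotypes, where no mouse can be shared, 1 and 2 of 10 did. The main fits used no pairing. With the replicate block, 4 genes in hippocampus, 30 in neocortex and 0 for the interaction were DE, members DE and lower in hippocampus were 12 in each genotype, and *Pcdhb4* was again DE in WT.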
